A study of Homo sapiens with 6 samples.

Results

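Hair keratins and keratin-associated proteins (KRTAP) build the hair shaft, and their genes were used here as a hair-lineage contrast to epidermal AP-1 binding. The set held the 94 protein-coding genes whose symbol starts with KRTAP, 11 type I hair keratins (KRT31, KRT32, KRT33A, KRT33B and KRT34 to KRT40) and 6 type II hair keratins (KRT81 to KRT86). That is 111 of 19974 protein-coding genes on the autosomes and X, chosen by symbol and not by any measured value. FOSL2 belongs to the FOS proteins and JUNB to the JUN proteins, which pair to form the transcription factor AP-1. Their binding was mapped by ChIP-seq in HaCaT cells, with 3 libraries per factor and a separate antibody for each. HaCaT is a single immortalised line of human skin keratinocytes, with no treatment named in the labels, and no hair follicle cells were included. Each factor had 1 deposited list of binding regions standing for its 3 libraries, 75703 regions for FOSL2 and 40061 for JUNB on the autosomes and X. No value therefore has a replicate error, depth is unknown, and the comparisons below are descriptions without a test over samples. Expression was not measured here, so a region near a gene says nothing of whether that gene was transcribed.

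Hair keratins are made in the matrix, cortex and cuticle of the growing hair. An acidic type I chain pairs with a basic type II chain, and the pairs assemble into intermediate filaments. KRTAPs fill the space between these filaments and are cross-linked to them by disulfide bonds through their many cysteines, while a further class is rich in glycine and tyrosine. Transcription factors of the hair matrix such as HOXC13 and FOXN1 act on these genes, whereas AP-1 is best known in skin for its targets in the interfollicular epidermis.

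The genes lay in 6 clusters, defined as neighbours no more than 500 kb apart. On chromosome 17, 45 genes from KRT39 to KRT36 (40958417 to 41489910, hg38) held all 11 type I hair keratins and 34 KRTAP genes. On chromosome 12, the 6 type II hair keratins ran from KRT86 to KRT82 (52274645 to 52406335). Chromosome 11 held the KRTAP5 genes in a cluster of 6 (1584342 to 1697755) and a cluster of 5 (71527267 to 71582875). Chromosome 21 held 33 KRTAP genes from KRTAP24-1 to KRTAP19-8 (30281309 to 31038476) and 16 KRTAP10 and KRTAP12 genes (44538981 to 44698044). All 16 of the latter lie inside the span of TSPEAR, which is annotated from 44497893 to 44711572.

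A gene was counted as bound when any base of a region lay within 10 kb of its span. FOSL2 had a region at 51 of the 111 genes (45.9%), against 76.9% of all protein-coding genes and 67.5% of those no longer than the longest member (34519 bp). JUNB had a region at 32 (28.8%), against 64.0% and 54.8%. An overlapping pair, meaning a FOSL2 and a JUNB region near the gene with at least 1 bp in common, was found at 27 (24.3%), against 53.1% and 42.1%. Both factors were present at 30 genes, FOSL2 without JUNB at 21, JUNB without FOSL2 at 2, and neither at 58. The same split over all protein-coding genes is not given here. The FOSL2 list is the longer one, with 75703 regions against 40061, so these counts alone do not set the members apart from other genes. Closest to the limit, KRTAP5-4 and KRTAP7-1 were counted with FOSL2 regions 9478 and 9528 bp away, and KRT35 and KRT40 were not, at 11215 and 11546 bp. For JUNB, KRTAP7-1 was counted at 9594 bp and KRT34 was not at 10532 bp. With a distance of 5 kb, 19 genes (17.1%) had a JUNB region, against 58.2% of all protein-coding genes.

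The low overall share came from the KRTAP genes. Of the 17 hair keratins, 14 (82.4%) had FOSL2 binding in the window and 13 (76.5%) had JUNB binding. Other genes of their length range, 3775 to 34519 bp, had one in 71.9% and 58.9%. An overlapping pair was present at 11 of 17 hair keratins (64.7%, against 45.3%). Of the 94 KRTAP genes, 37 (39.4%) had a FOSL2 region, 19 (20.2%) a JUNB region and 16 an overlapping pair. The longest KRTAP gene spans 1643 bp, and a short gene has a smaller window. Among the 912 other protein-coding genes no longer than that, 41.0% had a FOSL2 region, 29.9% a JUNB region and 22.9% a pair. Against genes of like length, the KRTAP share over all clusters together was thus close to the background for FOSL2 and below it for JUNB.

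**Figure D1:**
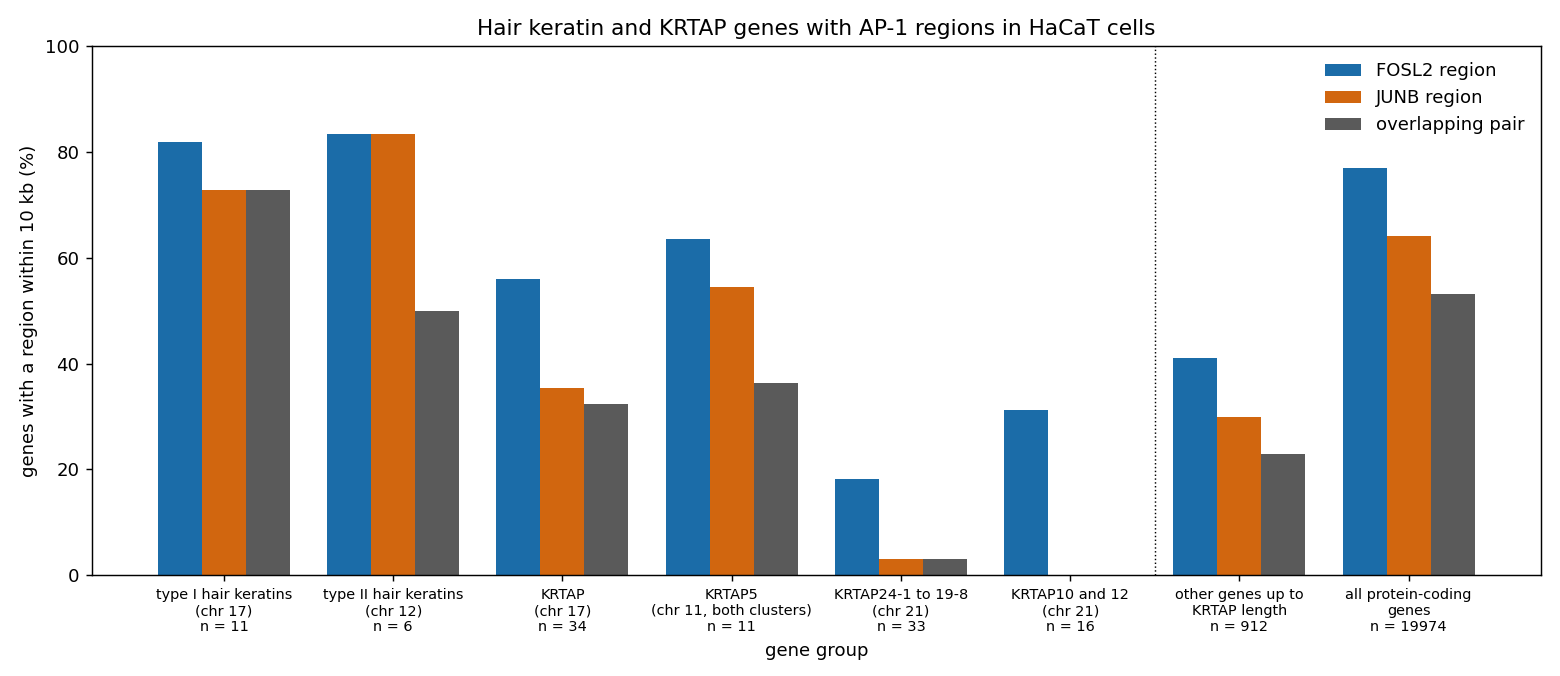
Share of genes with a FOSL2 region, a JUNB region or an overlapping pair within 10 kb (y axis, percent), by gene group, with n genes under each group. The 2 groups to the right of the dotted line are other protein-coding genes up to 1643 bp and all protein-coding genes. Hair keratins stand at 72.7 to 83.3% for single factors, and on chromosome 21 the JUNB bars are 3.03% and 0.

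The clusters differed widely. On chromosome 17, 28 of 45 genes (62.2%) had a FOSL2 region, 20 (44.4%) a JUNB region and 19 (42.2%) a pair, against 81.4, 73.7 and 59.8% of all protein-coding genes of that chromosome. On chromosome 12, 5 of 6 type II hair keratins had a FOSL2 region, 5 had a JUNB region and 3 had a pair, against 83.6, 70.3 and 57.5%. On chromosome 11, 7 of 11 KRTAP5 genes (63.6%) had a FOSL2 region, 6 (54.5%) a JUNB region and 4 (36.4%) a pair, against 73.8, 61.9 and 49.7%. The members on chromosome 21 were the least bound. Of these 49 KRTAP genes, 11 (22.4%) had a FOSL2 region, and 1 (2.04%) had a JUNB region and a pair, against 52.7, 38.1 and 30.5%. These chromosome shares cover genes of all lengths and include the members themselves, which are 49 of the 239 coding genes of chromosome 21. Among other genes up to KRTAP length, on any chromosome, the shares were 41.0, 29.9 and 22.9%. The KRTAP5 genes were above these values and the KRTAP genes of chromosome 21 below them. With a distance of 5 kb the FOSL2, JUNB and pair counts were 3, 2 and 1 on chromosome 11, 3, 3 and 2 on chromosome 12, 23, 14 and 13 on chromosome 17, and 5, 0 and 0 on chromosome 21. With a −log10 q of at least 10 they were 4, 2 and 2 on chromosome 11 and 7, 0 and 0 on chromosome 21, so the lone JUNB call there was lost under both limits. Neighbouring genes are not independent, since 21 of the 49 distinct FOSL2 regions and 13 of the 34 distinct JUNB regions near these genes lay within 10 kb of more than 1 member.

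Counting each region once set the type I hair keratins apart from the type II. The 10 kb windows around all hair keratins held 67.1 FOSL2 and 46.7 JUNB regions per Mb. Those of type I, on chromosome 17, held 90.6 and 62.0, while those of type II held 30.1 and 22.5, where the coding genes of chromosome 12 had 32.5 and 18.6. The windows of the KRTAP genes held 23.6 and 16.4. The windows of all protein-coding genes held 31.6 and 17.9 per Mb. The chromosome 17 cluster reached 60.0 per Mb for FOSL2 and 48.4 for JUNB, where the coding genes of that chromosome had 40.5 and 26.2. The chromosome 17 cluster of 45 genes, 34 of them KRTAP, was thus below its chromosome's share of genes with a region and above its density of regions. Its 11 keratins alone stood at 81.8% for FOSL2 and 72.7% for JUNB, near the chromosome's 81.4 and 73.7%. The KRTAP5 clusters of 6 and of 5 genes had 34.4 and 26.5 FOSL2 regions per Mb, and 45.9 and 13.2 JUNB regions. The coding genes of chromosome 11 had 34.4 and 20.6. These KRTAP5 densities rest on 3 and 2 FOSL2 regions and on 4 and 1 JUNB regions. With a −log10 q of at least 10, only 1 of the 6 genes of the first cluster kept a JUNB region. The 33 genes from KRTAP24-1 to KRTAP19-8 had 13.7 and 2.29 per Mb, and the KRTAP10 and KRTAP12 genes had 16.8 and 0, against 23.9 and 12.6 over the coding genes of chromosome 21. The median distance from a gene to the nearest FOSL2 region was 4909 bp on chromosome 17, and 79999 and 16985 bp in the larger and the smaller cluster of chromosome 21. For JUNB these medians were 12172, 183767 and 70861 bp. Over all coding genes of KRTAP length or less, KRTAP included, they were 14819 bp for FOSL2 and 29438 bp for JUNB.

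The keratins at both ends of the chromosome 17 cluster carried 19 of its 31 FOSL2 regions and 13 of its 25 JUNB regions. KRT39 and KRT40, at one end, encode hair keratins of the upper shaft. KRT39 had 4 FOSL2 regions with fold enrichments of 2.57, 4.79, 5.38 and 3.65, of which the first 3 overlapped JUNB regions of 2.56, 4.38 and 5.11. Fold enrichment is the authors' ratio of signal over background for each region, and its level is compared only within a list. KRT40, its neighbour, had none within 10 kb.

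Cortex keratins at the other end were bound by both factors, with an exception. KRT33A had 3 overlapping pairs, of 6.59 (FOSL2) and 6.0 (JUNB) with both summits inside the gene, 5.24 and 4.66, and 8.35 and 4.31. The last of these lay between KRT33A and KRT33B and was the only pair near KRT33B. KRT31, a main keratin of the cortex, had the strongest JUNB region of the whole set. It ran from 41403566 to 41404666 with a fold enrichment of 9.44 (95.6th percentile of the JUNB list), 5958 bp from the gene, and overlapped a FOSL2 region of 9.43. A weaker pair of 4.37 and 3.10 had its summits inside KRT31. KRT34 had FOSL2 regions of 3.02 and 3.57, the latter also near KRT31, and no JUNB region, and was the only type I hair keratin with 1 factor alone.

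Among the remaining type I hair keratins, KRT32, a cuticle keratin, stood highest for FOSL2. Its region of 11.1 (94.9th percentile), from 41464452 to 41465495, had its summit inside the gene, 52 bp from that of a JUNB region of 7.62, and a weak FOSL2 region of 3.03 stood alone. KRT37, known from vellus hair, had FOSL2 regions of 7.13, 4.38 and 4.42, the first paired with a JUNB region of 6.12. KRT38 had FOSL2 regions of 4.42, 3.62 and 6.39, the last paired with a weak JUNB region of 2.75. KRT36, at the border with the epidermal keratin genes, had 1 FOSL2 region (7.45) and JUNB regions of 4.53 and 4.07. The second of these lay 397 bp from KRT13 and overlapped a FOSL2 region farther than 10 kb from KRT36. KRT35, an early keratin of the hair matrix, had no region of either factor. All 13 distinct JUNB regions near type I hair keratins overlapped a FOSL2 region, and 12 of the 19 FOSL2 regions overlapped a JUNB region.

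The type II hair keratins had 4 distinct FOSL2 regions and 3 distinct JUNB regions. KRT86 and KRT81, cortex keratins whose annotated spans overlap, shared 2 FOSL2 regions of 5.91 and 4.81, the first paired with a JUNB region of 5.53. They therefore count as bound through the same sites. KRT83, another cortex keratin, had the strongest pair of the cluster, 10.1 for FOSL2 and 9.19 for JUNB, with summits 7 bp apart and 5830 and 6019 bp from the gene to the nearest edge. KRT85, the type II keratin of the hair matrix, had 1 JUNB region of 4.87 and no FOSL2 region. KRT84 shared that JUNB region and also had a FOSL2 region of 6.75, which did not overlap it. KRT82, a cuticle keratin, shared the FOSL2 region with KRT84 and had no JUNB region.

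**Figure D2:**
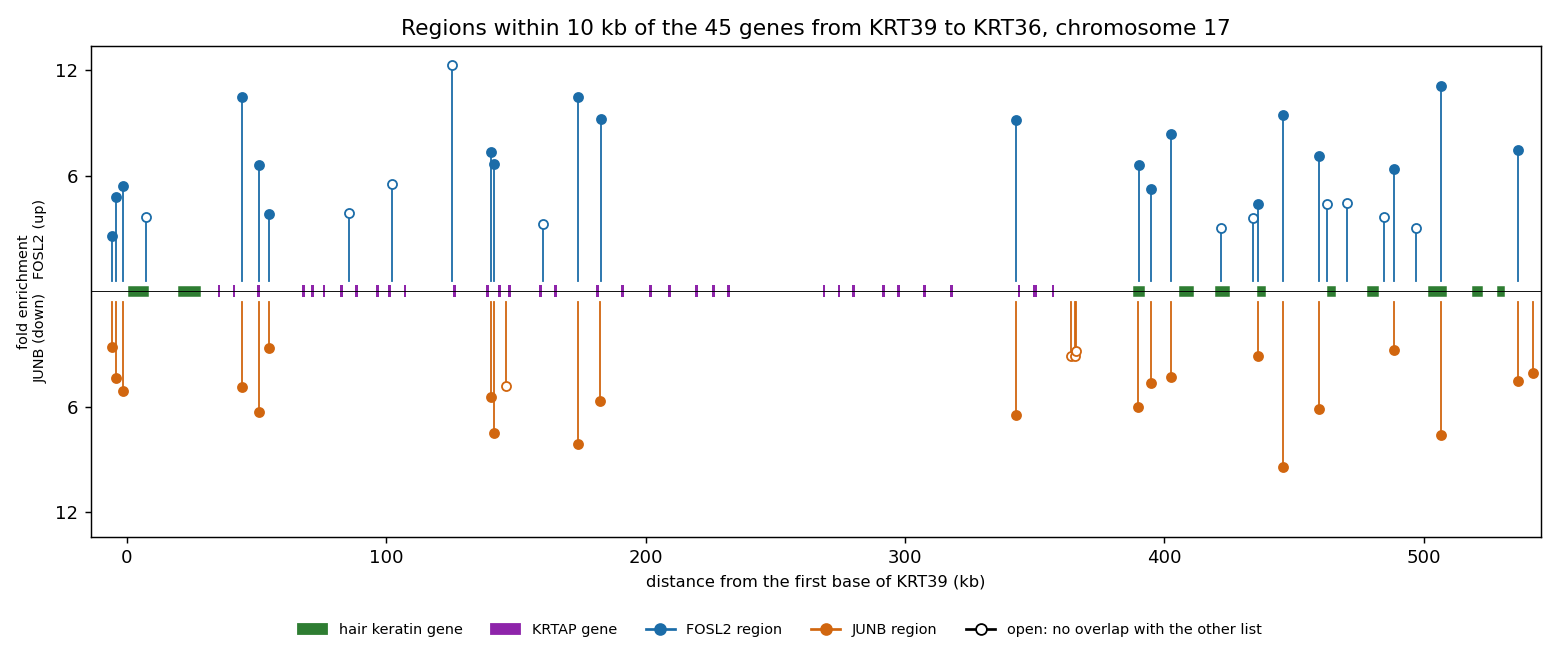
The chromosome 17 cluster, with genes as boxes along the middle (x axis, kb from the first base of KRT39) and regions within 10 kb of a member as stems at their summits, FOSL2 upward and JUNB downward (y axis, fold enrichment). Filled circles overlap the other list. Regions gather at both keratin ends and around KRTAP3 and KRTAP4, and none is drawn over the KRTAP9 genes. Regions farther than 10 kb from every member are not drawn, and bars start just off the gene line.

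Between the keratins, 19 of the 34 KRTAP genes of chromosome 17 (55.9%) had a FOSL2 region, 12 (35.3%) a JUNB region and 11 (32.4%) a pair. The shares for other genes up to KRTAP length were lower, at 41.0, 29.9 and 22.9%. The 3 KRTAP3 genes, of the high-sulfur class, shared a FOSL2 region of 10.5 that overlapped a JUNB region of 4.87 (41002731 to 41003217). A pair of 6.63 and 6.31 lay over the start of KRTAP3-1 and also within 10 kb of KRTAP3-2, and KRTAP3-1 had another pair of 3.79 and 2.64. All 4 KRTAP2 genes and 2 of 4 KRTAP1 genes had FOSL2 regions alone, of 5.53 or 3.85. The KRTAP4 genes, of the ultrahigh-sulfur class, had FOSL2 binding at 8 of 12 and JUNB binding at 6. KRTAP4-8, KRTAP4-16 and KRTAP4-9 shared pairs of 7.36 and 5.46 and of 6.68 and 7.50, with summits 4 and 7 bp apart, and a JUNB region of 4.79 without FOSL2. KRTAP4-12 and KRTAP4-6 shared a pair of 10.5 and 8.14, and KRTAP4-6 and KRTAP4-5 shared one of 9.22 and 5.65.

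Several members of this stretch had only 1 factor. KRTAP4-7 had the strongest FOSL2 region of the whole set, from 41082665 to 41083890 with a fold enrichment of 12.3 (98.3rd percentile of the FOSL2 list) and an edge 260 bp from the gene. No JUNB region overlapped it, and the nearest one lay 13252 bp from KRTAP4-7. KRTAP17-1 was the opposite case, with 3 JUNB regions of 3.08, 3.08 and 2.80 between 41322470 and 41324399 and no FOSL2 region within 10 kb. KRTAP29-1 and KRTAP16-1 shared a pair of 9.19 and 6.49 whose summits fell on the same base, 41301381.

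The 8 KRTAP9 genes, also of high cysteine content, had no region of either factor, and neither did KRTAP4-1 to KRTAP4-4. Between 41141243 and 41301138, a length of 160 kb with 13 members, there was no JUNB region, and no region of either factor between 41212720 and 41291043. The KRTAP9 genes are close copies of each other. Of the 7 members wholly inside the empty stretch of 78.3 kb, 6 had a promoter in the RefSeq table. A median of 26.4% of their 36-base words also occurred in the promoter of another gene, against 0 for the other 27 KRTAP promoters of the cluster. The highest value among those 27 was 42.6%, at KRTAP4-7 and KRTAP4-9, which both had regions within 10 kb. Over all 94 member promoters, the median was 0 for the 43 genes with a region and 0 for the 51 without. The part of repeated sequence in the empty stretch was not tested.

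The KRTAP5 genes of chromosome 11, an ultrahigh-sulfur family of the hair cuticle, were bound mainly through single sites. KRTAP5-1 and KRTAP5-2 shared a weak pair of 5.15 (FOSL2) and 3.30 (JUNB), and KRTAP5-1 had a further JUNB region of 4.24. KRTAP5-4 and KRTAP5-5 had a FOSL2 region of 3.71 and a JUNB region of 3.60 at separate places. KRTAP5-6, the last gene of the first cluster, had a stronger pair of 9.77 and 6.28, with summits 5 bp apart. In the second cluster KRTAP5-11, also the last gene, had a pair of 11.8 (97.3rd percentile of the FOSL2 list) and 6.91, from 71588883 to 71589530 for FOSL2. KRTAP5-9 had a FOSL2 region of 3.12 alone. KRTAP5-3, KRTAP5-7, KRTAP5-8 and KRTAP5-10 had none.

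The KRTAP genes of chromosome 21 were nearly free of JUNB regions within 10 kb. Only 1 JUNB region lay that close to any of the 49 genes. It had a fold enrichment of 4.55, ran from 30839353 to 30839674 near KRTAP7-1 and overlapped a FOSL2 region of 8.63. The 5 other FOSL2 regions of the larger cluster had no JUNB partner. They were 9.76 at KRTAP23-1 (87.7th percentile of the FOSL2 list), 7.98 at KRTAP27-1, 6.47 at KRTAP21-3, 5.69 at KRTAP24-1 and 3.12 at KRTAP19-8. Of these 5, 4 exceeded the FOSL2 list's median of 5.56. Over a stretch of 368 kb with 21 members, from KRTAP13-2 to KRTAP20-3, neither factor had a region. For JUNB the empty stretch was 568 kb, counted only from 10 kb before KRTAP24-1. Promoters of this cluster repeated few words of others (at most 1.51% of 36-base words). Of the 22 genes of the high glycine-tyrosine families (KRTAP6, 7, 8, 19, 20, 21 and 22), all in this cluster, 3 (13.6%) had a FOSL2 region and 1 (4.55%) a JUNB region. Other genes up to KRTAP length had one in 41.0 and 29.9%. In the smaller cluster, FOSL2 regions of 3.36, 4.31 and 3.00 lay near KRTAP10-3, KRTAP10-4, KRTAP10-5, KRTAP12-2 and KRTAP12-1, all within the span of TSPEAR. Members without any region were 27 of 33 in the larger cluster, among them KRTAP11-1 and KRTAP13-1 to KRTAP13-4, and 11 of 16 in the smaller.

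**Figure D3:**
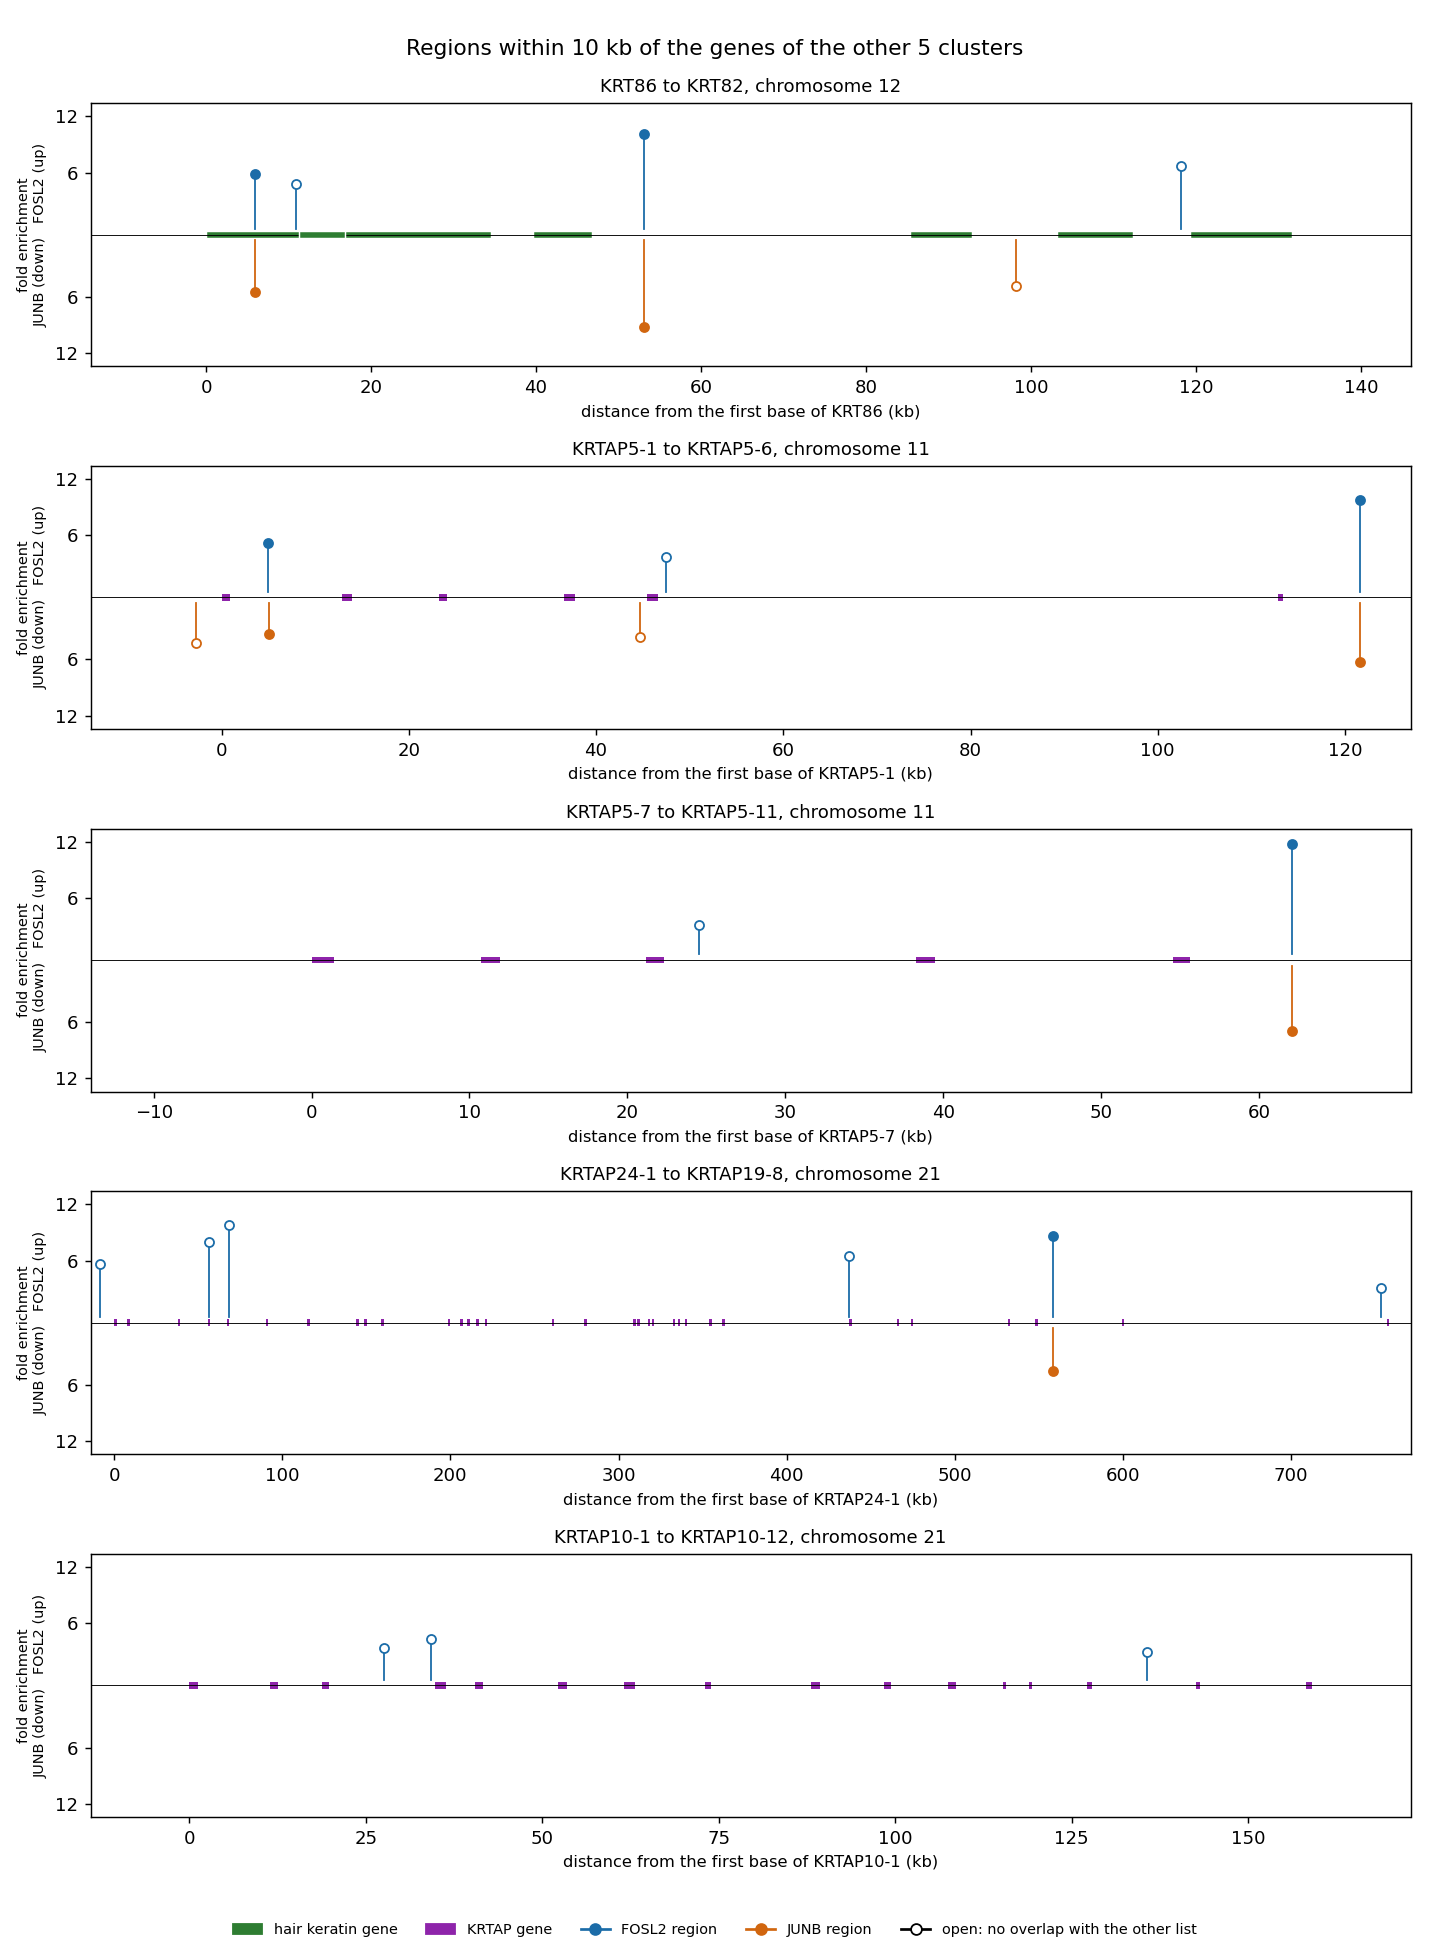
The other 5 clusters drawn as for chromosome 17, with x axes in kb from the first base of the first gene and fold enrichment on the y axes. KRT81 is outlined inside the span of KRT86. The chromosome 21 panels hold 9 FOSL2 regions and 1 JUNB region.

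Where regions existed, they were of ordinary strength and their summits were close. The 49 distinct FOSL2 regions had a median fold enrichment of 5.69 (interquartile range 3.79 to 8.35), against 5.56 in the whole list. The 34 JUNB regions had a median of 4.83 (3.72 to 6.24), against 4.79. In the top 10% of their lists ranked 5 of the 49 FOSL2 and 2 of the 34 JUNB regions. FOSL2 regions overlapped a JUNB region in 26 of 49 cases (53.1%, 95% Wilson interval 39.4 to 66.3), against 41.1% of the list. JUNB regions overlapped a FOSL2 region in 27 of 34 (79.4%, 63.2 to 89.7), against 78.5%. These intervals cover counting error only. FOSL2 overlap was 64.5% (46.9 to 78.9) on chromosome 17 and 33.3% (16.3 to 56.3) over the other clusters together, with intervals that meet. The summits of the 26 pairs near the same member had a median distance of 27.5 bp and a maximum of 113 bp, against a median of 31.0 bp over all 31460 pairs of the lists.

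**Figure D4:**
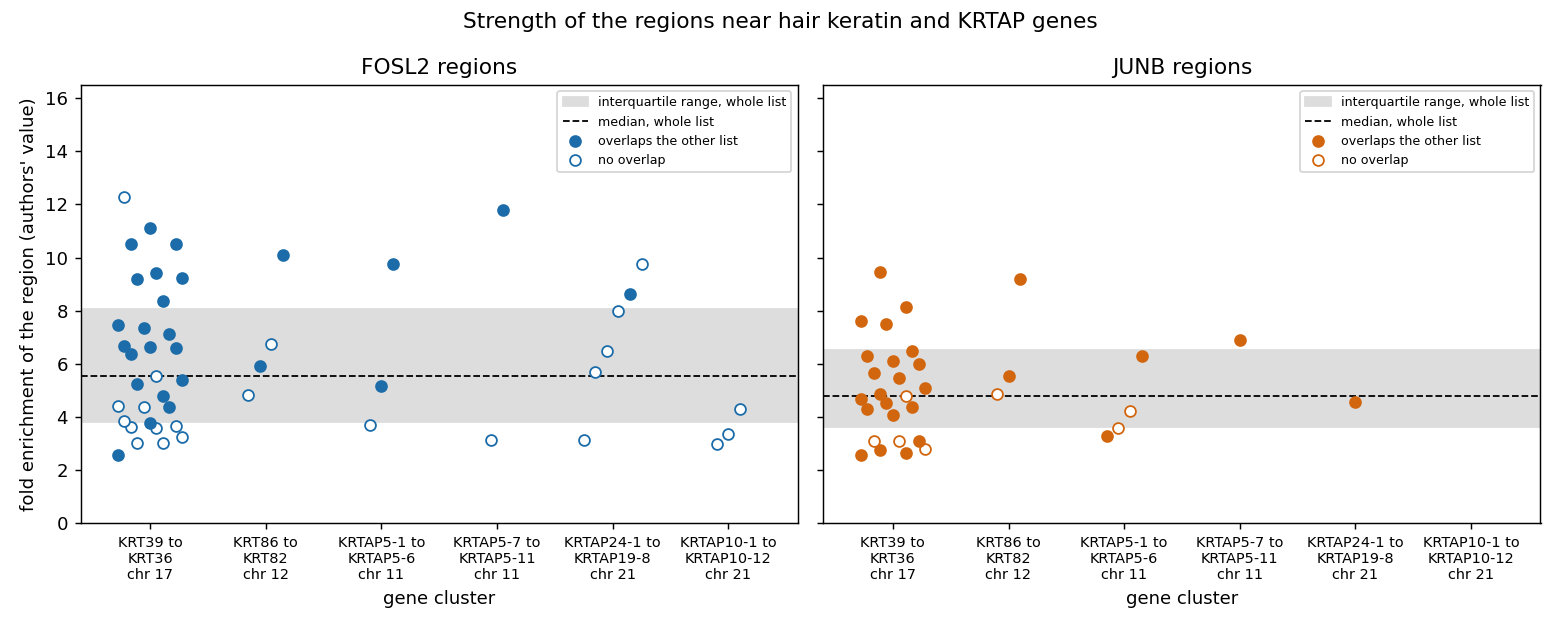
Fold enrichment of each distinct region (y axis) by cluster (x axis), FOSL2 on the left and JUNB on the right, with the whole list's median as a dashed line and its interquartile range in grey. Filled circles overlap the other list. On the left, each of the first 5 clusters has points on both sides of the dashed line, and the 3 FOSL2 regions of the KRTAP10 and KRTAP12 cluster lie below it. On the right this holds for 2 clusters, KRT39 to KRT36 and KRTAP5-1 to KRTAP5-6.

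Few regions lay on the start of a member. RefSeq (GRCh38.p14) promoters, from 250 bases before to 50 after the gene start, were matched for 94 of the 111 genes. FOSL2 regions touched 6 of them (6.38%), against 20.6% of all 15812 protein-coding promoters, and JUNB regions touched 2 (2.13%), against 22.7%. Promoters of other genes up to KRTAP length were touched in 9.89% and 9.74%. Both factors touched KRTAP3-1 and KRTAP4-6, and FOSL2 alone touched KRTAP2-3, KRTAP4-8, KRTAP27-1 and KRTAP21-3. The AP-1 letters TGANTCA, searched on both strands, occurred in 7 member promoters (7.45%), against 5.76% of all coding promoters and 7.46% of those of other genes up to KRTAP length. No hair keratin promoter of the 14 matched held them. The letters TATAAA on the gene's strand occurred in 69 member promoters (73.4%), against 6.92% of all and 19.5% of those of short genes. Where present they started a median of 32 bases before the gene start.

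The 250 bases before the gene start are shown for the promoters touched by a region that hold the AP-1 letters. Also shown are a touched one of each chromosome without the letters and an untouched one with them. All 5 lie on the minus strand and are written 5′ to 3′ in the gene's direction, with TGANTCA and TATAAA in capitals. They are KRTAP4-6 (chr17:41140545-41140794), KRTAP3-1 (chr17:41009129-41009378), KRTAP27-1 (chr21:30337695-30337944), KRTAP21-3 (chr21:30718778-30719027) and KRTAP19-5 (chr21:30502142-30502391).
KRTAP4-6: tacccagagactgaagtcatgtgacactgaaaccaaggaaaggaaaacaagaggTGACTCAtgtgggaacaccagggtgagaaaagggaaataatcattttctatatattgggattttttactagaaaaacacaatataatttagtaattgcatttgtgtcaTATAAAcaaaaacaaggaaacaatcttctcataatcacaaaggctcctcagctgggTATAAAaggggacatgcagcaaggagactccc
KRTAP3-1: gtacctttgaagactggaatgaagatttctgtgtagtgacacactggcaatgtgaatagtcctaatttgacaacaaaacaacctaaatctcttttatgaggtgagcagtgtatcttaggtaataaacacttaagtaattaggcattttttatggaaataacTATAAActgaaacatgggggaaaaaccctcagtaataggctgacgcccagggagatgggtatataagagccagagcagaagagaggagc
KRTAP27-1: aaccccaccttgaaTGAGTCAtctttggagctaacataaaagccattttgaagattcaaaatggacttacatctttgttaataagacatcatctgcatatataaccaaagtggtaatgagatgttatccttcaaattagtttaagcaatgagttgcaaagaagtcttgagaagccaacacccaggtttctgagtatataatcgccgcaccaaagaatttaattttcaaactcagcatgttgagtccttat
KRTAP21-3: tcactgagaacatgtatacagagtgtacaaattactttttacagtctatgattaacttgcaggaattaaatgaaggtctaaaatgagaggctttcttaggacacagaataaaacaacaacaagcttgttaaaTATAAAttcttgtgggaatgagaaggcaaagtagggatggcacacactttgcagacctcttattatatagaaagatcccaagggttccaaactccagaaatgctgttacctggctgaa
KRTAP19-5: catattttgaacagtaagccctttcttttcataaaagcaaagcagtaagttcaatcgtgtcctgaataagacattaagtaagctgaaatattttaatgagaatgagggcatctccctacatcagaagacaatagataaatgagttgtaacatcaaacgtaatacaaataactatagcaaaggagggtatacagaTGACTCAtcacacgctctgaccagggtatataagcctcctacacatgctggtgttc

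In KRTAP4-6 the AP-1 letters TGACTCA start 196 bases before the gene and lie under both regions, 337 bp from the FOSL2 summit and 255 bp from the JUNB summit. In KRTAP27-1 TGAGTCA starts 236 bases before the gene, 24 bp from the summit of the FOSL2 region of 7.98, and no JUNB region lay within 10 kb. KRTAP3-1 and KRTAP21-3 had regions over their starts without these letters in the window. In neither gene did a summit fall within the printed bases. The KRTAP21-3 region, with its summit at 30718488, ended at 30718783 and covered only the gene-near end of those bases. Whether the rest of these regions holds the letters was not tested. KRTAP19-5 holds TGACTCA 56 bases before its start, and KRTAP3-2 holds TGAGTCA. The letters TGANTCA allow any middle base. In KRTAP4-12 and KRTAP6-3 the match is TGATTCA and in KRTAP4-5 it is TGAATCA, so its middle base is neither C nor G. None of these 5 promoters was touched by a region. FOSL2 regions thus touched 2 of the 7 promoters with the letters and 4 of the 87 without, and JUNB regions touched 1 of the 7 and 1 of the 87. The same split over all coding promoters is not given here, and a link between letters and binding was not tested. A match is a description of letters and does not mark a site.

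Other keratin genes, from lists chosen by function, give the scale of the contrast. Keratins of the epidermis and other epithelia, many of them neighbours of the hair keratins, numbered 28, of which 26 (92.9%) had a FOSL2 region, 23 (82.1%) a JUNB region and 22 (78.6%) a pair. The shares over all protein-coding genes were 76.9, 64.0 and 53.1%. Their windows held 86.3 regions per Mb for FOSL2 and 74.6 for JUNB, where those of the hair keratins held 67.1 and 46.7. By type, the hair keratin windows held 90.6 and 62.0 (type I) and 30.1 and 22.5 (type II). For FOSL2, type I was thus above the keratins of the epidermis and other epithelia. Keratins of the inner root sheath and companion layer, which surround the hair shaft, had FOSL2 binding at 5 of 9, and JUNB binding and a pair at 4 of 9, which are 55.6 and 44.4%. KRT26, KRT27, KRT28 and KRT73 of that list had none. The late cornified envelope genes are also clustered genes of keratinising cells. Of 19, 10 (52.6%) had a FOSL2 region and 5 (26.3%) a JUNB region, beside the KRTAP shares of 39.4 and 20.2%. Whether any of these shares differ was not tested, because genes of a cluster share regions.

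Regulators and other genes of the hair shaft and follicle numbered 48. Of these, 38 (79.2%) had a FOSL2 region, 35 (72.9%) a JUNB region and 28 (58.3%) a pair. The backgrounds are 76.9, 64.0 and 53.1%. HOXC13, a regulator of hair keratin genes, had FOSL2 regions up to 7.18 and no JUNB region. LEF1, the Wnt-responsive factor of the hair matrix, likewise had 1 FOSL2 region of 11.7 and no JUNB region. FOXN1 had FOSL2 regions up to 5.02 and a JUNB region of 3.48 that did not overlap. PADI3 and TGM3, enzymes that modify hair proteins, had pairs, with values up to 6.28 (FOSL2) and 8.17 (JUNB) and up to 9.03 and 7.48. SHH, BMP4, MSX1, FGF5, FOXQ1, GJB6 and APCDD1 had no region of either factor.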

How the data were processed

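FOSL2 and JUNB ChIP-seq in HaCaT cells comprised 3 libraries each, prepared by ChIPmentation per the labels. The submitters' processing notes name Bowtie2, SAMtools 1.8, Picard 1.89, MACS2, deepTools and hg38. Their order, the control and how libraries were combined are not stated in the labels. Of the deposited lists, the fold enrichment (a ratio), the −log10 q and the summit of each region were used, as the authors' peak caller wrote them. Of 75704 FOSL2 rows, 1 was dropped because it lay on none of the autosomes or X, and all 40061 JUNB rows were kept. Depth per library is unknown.

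Gene spans were taken from RefSeq (GRCh38.p14), with coordinates from 1. Regions were counted with Python 3.11.15, pandas 2.3.3, numpy 2.4.6 and scipy 1.17.1 within 10 kb of gene spans, by code tested on simulated data. The members and lists were chosen with earlier results of these data known. The rule for names was every member with both factors, in each cluster the 3 of highest fold enrichment with 1 factor, and up to 5 unbound members in alphabetical order. Other members and the genes of the comparison lists were named after their values were seen. Alternatives were other distances, gene ends, summits, stricter regions and overlaps, and shorter background genes. Cysteine content was planned and was not computed here. The search for 36-base words and the background of genes up to KRTAP length were added after seeing the data.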

Additional observations from a re-analysis of the deposited data

How the results depend on the processing

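The counts of 51 (FOSL2), 32 (JUNB) and 27 (pairs) genes stayed within 1.5 times with summits in place of regions, gene ends, −log10 q of at least 10 and, for pairs, a reciprocal overlap of 50% or summits within 100 bp. With 5 kb the FOSL2 count did so too, at 34, but the JUNB and pair counts were 19 and 16. With 50 kb the counts were 92, 67 and 67, and with the 10000 regions of highest fold enrichment 11, 9 and 5. As shares of the members, these were 82.9, 60.4 and 60.4%, and 9.91, 8.11 and 4.50%. All protein-coding genes had 92.9, 83.9 and 77.5% with 50 kb, and 23.3, 24.4 and 15.5% with those 10000 regions. With 5 kb they had 70.5, 58.2 and 47.1%, against 30.6, 17.1 and 14.4% of the members. Members were below the share of all protein-coding genes, of any length, under each of these settings. The background of 76.9% (FOSL2) and 64.0% (JUNB) was 67.5 and 54.8% for genes no longer than the longest member, and 40.9 and 29.0% for genes no longer than the longest KRTAP, those included. The JUNB overlap of 79.4% was 91.3% with −log10 q of at least 10, against 89.4% of the list. Median fold enrichment became 6.59 (FOSL2) and 5.65 (JUNB) with that limit, 5.31 and 4.87 with 5 kb, and 6.29 for FOSL2 with 50 kb. Regions per Mb became 34.9 and 20.2 with 5 kb and 36.7 and 25.3 with 50 kb. The cause of these shifts was not tested, beyond the wider or narrower windows and fewer regions themselves. No paired analysis was possible because each factor had 1 list for its 3 libraries, which also left no replicate to leave out.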
